A study of Mus musculus with 6 samples.

Results

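Slits, netrins and class 3 semaphorins are secreted proteins that were first described as cues steering growing axons. Slits bind Robo receptors, netrins bind DCC, neogenin and UNC5 receptors, and class 3 semaphorins bind neuropilins, which pass the signal on through plexins. Outside the nervous system the same proteins act in mammary gland branching and in blood vessel growth, where neuropilins also serve as co-receptors for VEGF. The genes described here are 10 of the 18460 genes listed in the series, namely the ligand genes Slit2, Slit3, Ntn1, Ntn4, Sema3a and Sema3c and the receptor genes Robo1, Robo2, Nrp1 and Nrp2. They were chosen by name and found by their NCBI Gene identifiers, and each was measured in all 6 tumors.

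RNA sequencing compared 3 test breast tumors (K14-TSLPtg;PyMTtg;Rag1KO+CD4+ T cells) with 3 control breast tumors (PyMTtg;Rag1KO+CD4+ T cells), all from strain Balb/c. All mice carried the polyoma middle T oncogene, which the MMTV promoter drives in mammary epithelium, lacked Rag1 and therefore T and B cells of their own, and received donor CD4+ T cells when 4 wk old. The test mice additionally carried a Tslp transgene driven by the K14 promoter, which is active in keratinocytes. Tumors were taken at wk 18 to 20, and the design asks which genes differ between test and control tumors.

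Total expected counts, the authors' estimates of reads per gene, ran from 8373390 to 9449565 per tumor. Luminal keratin and adhesion genes were abundant in every tumor, and the summed CPM of 7 luminal markers was 5336 to 5700 in the test tumors and 1874 to 4123 in the control tumors. Of the 10 marker lists summed, the only other one without overlap was that of Schwann cells and nerve, at 499 to 637 CPM in the test tumors and 641 to 768 CPM in the control tumors, while basal, endothelial, fibroblast, pericyte, macrophage, muscle, adipocyte and T cell sums overlapped. The Schwann cell and nerve list was mixed, with 2 of its 5 tested genes higher and 3 lower in test tumors. By edgeR 0 of them had an unadjusted p under 0.05. Of the lists whose sums overlapped, the 8 muscle genes and the 3 tested adipocyte genes were all higher in test tumors. Endothelial and fibroblast lists each had 6 of 8 genes higher. Lower in test tumors were 7 of 8 basal, 5 of 5 pericyte and 5 of 6 macrophage genes. An unadjusted edgeR p under 0.05 was found for the 3 adipocyte genes and for 1 gene each of the muscle, basal, fibroblast and macrophage lists (background 8.41%). The summed CPM of 4 T cell markers was 2.77 to 5.75 across the 6 tumors, and Cd3e had at most 7 expected counts in any of them. The summed CPM of 8 skeletal muscle markers was 105 to 975 in the test tumors and reached 189 in the control tumors, in replicate 2. Tslp itself had 2, 2 and 3 expected counts in control replicates 1 to 3 and 12, 7 and 2 in test replicates 1 to 3. Control replicate 2 correlated with the test tumors at r = 0.921 to 0.935 and with the other control tumors at r = 0.874 and 0.908, across genes on the log2 CPM scale. CPM are read counts relative to library size after TMM scaling. The part of these differences in marker sums in the values below was not tested, and in whole tumors fewer cells of a type and less RNA per cell cannot be told apart.

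Both Slit genes carry a copy of the same microRNA, miR-218, which is known to target Robo1, so its seed and the matching bases in the Robo messages are shown to place the ligands and receptors beside each other. In the GENCODE annotation of GRCm38 (mm10), Slit2 lies on chr5:47983138-48307733 (plus strand) and holds Mir218-1 in intron 14 at chr5:48223942-48224051. Slit3 lies on chr11:35121224-35708507 (plus strand) and holds Mir218-2, also in intron 14, at chr11:35616816-35616925. Both hairpins give the mature sequence below, from RefSeq on GRCm38, with the seed (bases 2 to 8) in capitals.
miR-218-5p: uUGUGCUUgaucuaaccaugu
The 3′ UTRs of Robo1 (chr16:72308306-73046095, plus strand) and Robo2 (chr16:73891839-74411825, minus strand), whose genes lie 0.85 Mb apart, contain the seed's complement, AAGCACA, in capitals in the GENCODE transcript sequences below. The Robo1 match is at chr16:73045348-73045354, and the Robo2 matches are at chr16:73895359-73895365 and chr16:73893033-73893039.
Robo1, UTR base 986: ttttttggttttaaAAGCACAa
Robo2, UTR base 461: ttttatttggtgatAAGCACAa
Robo2, UTR base 2787: gtcacggcagacccAAGCACAg
The search covered the transcript strand alone. Slit2 and Ntn4 had 2 matches each, and the other 6 members had none. Of 19282 genes with an annotated 3′ UTR, 12.9% held this motif, and 3.7% held AAGCACAA, the form of the Robo1 match and of the first Robo2 match. A match is a stretch of letters and not a measured site, and the level of miR-218 was not analyzed here.

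Levels were compared between genes as FPKM, the authors' values scaled to gene length and sequencing depth. Ntn1, whose product netrin-1 is a laminin-related secreted cue, was the highest member at 21.4 ± 10.9 FPKM (SD over all 6 tumors) and exceeded the next member in every tumor. Nrp1 followed with 5.5 ± 1.92 FPKM, Slit3 with 4.18 ± 1.68, Ntn4 with 3.97 ± 1.67, Sema3c with 3.25 ± 1.31, Robo1 with 2.62 ± 1.49 and Nrp2 with 2.04 ± 0.555. None of these neighbors in the order differed by more than the larger of their SDs. Slit2 at 1.01 ± 0.477 FPKM was below Nrp2 in all 6 tumors. Sema3a at 0.413 ± 0.216 FPKM and Robo2 at 0.392 ± 0.308 FPKM were lowest and were not separated from each other.

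**Figure D1:**
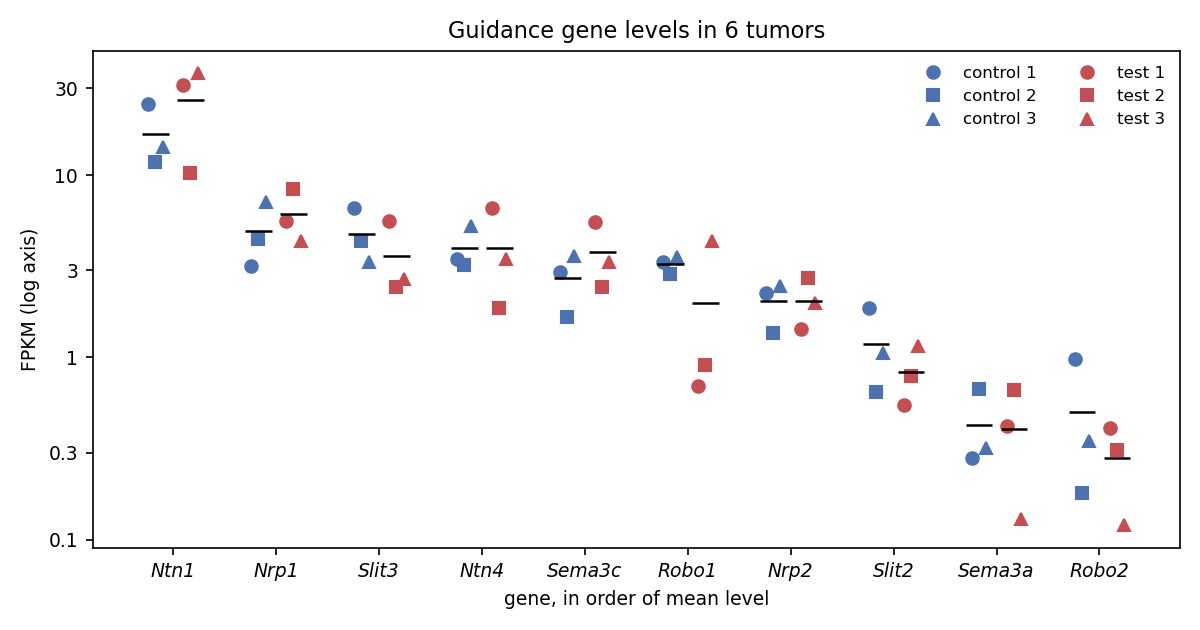
Each point is the FPKM of a gene in 1 tumor on a log axis, blue for control and red for test, with the replicate number given by the shape, and black bars are group means of 3 tumors. Ntn1 stands highest, Sema3a and Robo2 lowest, and the test and control points of every gene overlap.

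No member passed the test between the groups, and in each of them the test and control tumors overlapped. With edgeR (quasi-likelihood F test, Benjamini-Hochberg over 13706 tested genes), 0 of the 10 members and 0.00% of all tested genes reached a false discovery rate of 0.05. An unadjusted p under 0.05 was found for 0 of the 10 members and for 8.41% of all tested genes (1153 genes, 432 of them higher in test tumors). DESeq2 placed 0 members and 313 of all genes past a false discovery rate of 0.05. The CPM ranges of test and control tumors overlapped for all 10 members, whereas 12.0% of all tested genes had ranges that did not overlap. The median log2 fold change (test minus control) was -0.02 over the members and 0.02 over all tested genes. Each tumor came from a different mouse, according to the study. In simulated data the edgeR test called 0 of 50 genes changed 2-fold, 23 of 50 changed 4-fold and 42 of 50 changed 8-fold. The absence of passing members therefore does not exclude changes of 2-fold or 4-fold.

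**Figure D2:**
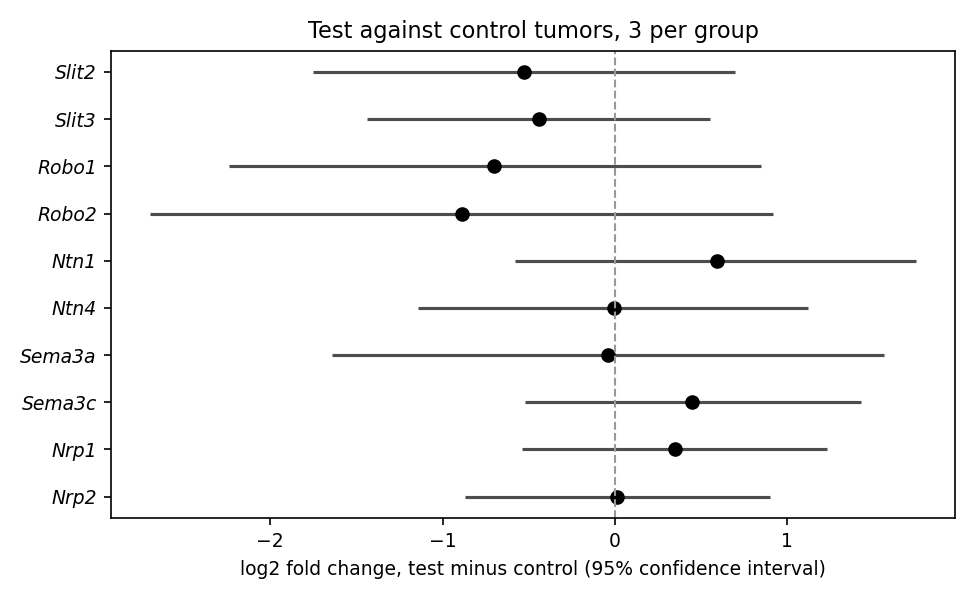
The horizontal axis is the log2 fold change of test minus control tumors, n = 3 per group, from the quasi-likelihood test, with points for the estimates and lines for 95% confidence intervals. All 10 intervals include 0, and those of Robo2 (-2.70 to 0.92) and Robo1 (-2.24 to 0.85) reach furthest to the left.

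Among the Slit ligands, Slit2 was present at 16.1, 5.08 and 8.31 CPM in the control tumors (replicates 1 to 3, the order used for every gene) and at 4.27, 6.71 and 9.44 CPM in the test tumors. The highest value was control replicate 1 and the lowest was test replicate 1, and the remaining 4 tumors were interleaved. Test minus control, the log2 fold change was -0.53 ± 0.53 (SE; 95% interval -1.75 to 0.70; edgeR adjusted p = 0.805). Slit3 was present at 36.0, 21.3 and 16.3 CPM in the control tumors and at 27.4, 12.9 and 13.8 CPM in the test tumors. The 2 lowest values were test replicates 2 and 3, while test replicate 1 exceeded control replicates 2 and 3. Its log2 fold change was -0.44 ± 0.43 (SE; 95% interval -1.44 to 0.55; edgeR adjusted p = 0.801).

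Robo1, the single-pass receptor through which Slits repel migrating cells, was low in 2 test tumors and high in the other. It was present at 27.2, 21.2 and 26.5 CPM in the control tumors and at 5.19, 7.32 and 33.6 CPM in the test tumors. Test replicates 1 and 2 were below every control tumor, and test replicate 3 was above every control tumor. The expected counts behind these values were 45, 60 and 317 in the test tumors and 196 to 249 in the control tumors. In the fit, the log2 fold change was -0.70 ± 0.66 (SE; 95% interval -2.24 to 0.85; edgeR adjusted p = 0.798), and the exact permutation test over the 20 splits of the 6 tumors gave p = 0.4, where 0.1 is the smallest p that 3 against 3 allows. Test replicate 3 decided this value, since without it the log2 fold change was -1.98 ± 0.38 (SE) with an unadjusted p of 0.0014 and an edgeR adjusted p of 0.629. Test replicate 3 did not stand apart from the test group in the luminal sum, which was 5700 CPM there, compared with 5356 and 5336 CPM for replicates 1 and 2. It had the lowest skeletal muscle and adipocyte marker sums of the test group, at 105 and 15.7 CPM, against 975 and 382 CPM in replicate 1 and 182 and 99.7 CPM in replicate 2. In the control tumors the adipocyte sums were 15.9 to 24.8 CPM and the skeletal muscle sums were 7.64, 189 and 5.75 CPM. The 189 CPM was in control replicate 2, above test replicate 2, while its Robo1 was 21.2 CPM against 7.32 CPM there. Test replicate 3 also had the lowest basal sum of the test group, at 525 CPM against 1252 and 690 CPM in replicates 1 and 2. Its pericyte sum was the highest of that group, at 95.6 CPM against 63.1 and 65.5 CPM. The part of these tissues and cell types in the Robo1 values was not tested.

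Robo2, the close relative of Robo1, was the least abundant member in FPKM. It was present at 8.56, 1.41 and 2.77 CPM in the control tumors and at 3.23, 2.69 and 0.955 CPM in the test tumors, from 9 to 74 expected counts. Control replicate 1 was higher than the 5 other tumors, and the lowest was test replicate 3, the tumor with the highest Robo1. This gave a log2 fold change of -0.89 ± 0.78 (SE; 95% interval -2.70 to 0.92; edgeR adjusted p = 0.785). It was 0.12 without control replicate 1, so that its direction rested on that tumor. The 95% interval covers folds from 0.154 to 1.90, and the data do not tell the folds within it apart.

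Ntn1 (chr11:68209364-68400823, minus strand) was present at 154, 66.3 and 80.0 CPM in the control tumors and at 176, 63.0 and 211 CPM in the test tumors. Test replicates 1 and 3 were the 2 highest tumors and test replicate 2 was the lowest of all 6. The estimate was a log2 fold change of 0.59 ± 0.50 (SE; 95% interval -0.58 to 1.75; edgeR adjusted p = 0.784), and the group means were 100 ± 47.1 CPM in control and 150 ± 77.6 CPM in test tumors (SD, n = 3). Without test replicate 2 it was 0.96, at an unadjusted p of 0.0510 by edgeR. Ntn4 (chr10:93640681-93747207, plus strand), which encodes a netrin of basement membranes, was present at 8.91, 7.46 and 12.3 CPM in the control tumors and at 15.3, 4.76 and 8.38 CPM in the test tumors. Test replicate 1 was the highest and test replicate 2 the lowest, so that the control tumors fell inside the range of the test tumors. Test differed from control by a log2 fold change of -0.0071 ± 0.49 (SE; 95% interval -1.14 to 1.12; edgeR adjusted p = 0.998).

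Sema3a (chr5:13125414-13602565, plus strand), the class 3 semaphorin that binds neuropilin-1, was present at 1.97, 4.22 and 2.02 CPM in the control tumors and at 2.65, 4.52 and 0.849 CPM in the test tumors. Replicate 2 was the highest of either group, and test replicate 3 was the lowest with 7.87 expected counts. Its deposited expected counts, like those of Nrp2, were not all whole numbers, so that some reads may have been divided with other features. The fitted log2 fold change was -0.04 ± 0.69 (SE; 95% interval -1.64 to 1.56; edgeR adjusted p = 0.990). Sema3c (chr5:17574281-17730268, plus strand), a semaphorin that signals through both neuropilins, was present at 15.7, 8.0 and 17.4 CPM in the control tumors and at 26.8, 12.8 and 16.8 CPM in the test tumors. The highest tumor was test replicate 1 and the lowest was control replicate 2, with test replicates 2 and 3 inside the control range. The log2 fold change was 0.45 ± 0.42 (SE; 95% interval -0.52 to 1.43; edgeR adjusted p = 0.792).

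Nrp1 (chr8:128358604-128503363, plus strand) was present at 20.3, 26.0 and 41.1 CPM in the control tumors and at 32.4, 52.6 and 26.1 CPM in the test tumors. In 7 of the 9 pairs of 1 test and 1 control tumor the test tumor was higher, and control replicate 3 was the second highest tumor. The log2 fold change was 0.35 ± 0.38 (SE; 95% interval -0.54 to 1.23; edgeR adjusted p = 0.821). Summed over 8 endothelial markers, a cell type in which neuropilin-1 acts with VEGF receptors, CPM was 129 to 141 in the test tumors and 92.0 to 139 in the control tumors. Summed over 8 fibroblast markers, CPM was 1007, 3022 and 2048 in the control tumors and 1182, 5103 and 1995 in the test tumors. The highest sum was in test replicate 2, the tumor with the highest Nrp1. The second highest was in control replicate 2, where Nrp1 was 26.0 CPM, below the 41.1 CPM of control replicate 3 and the 32.4 CPM of test replicate 1. The part of either cell type in the Nrp1 values was not tested.

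Nrp2 (chr1:62703285-62818695, plus strand) was present at 15.0, 8.44 and 14 CPM in the control tumors and at 8.99, 16.6 and 12.2 CPM in the test tumors, the narrowest range of the 10 members at 1.97-fold between the highest and lowest tumor. Control replicate 2 and test replicate 1 were lowest, and the groups overlapped throughout. The log2 fold change was 0.01 ± 0.38 (SE; 95% interval -0.87 to 0.90; edgeR adjusted p = 0.995).

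Nrp2 had the most transcripts of any member in the files, 6 in number with alternative coding exons, and was the only member whose deposited gene length differed between tumors. The first segment below (chr1:62786281-62786316) is present in full in 3 of the transcripts and without its last 15 bases, in capitals, in the other 3. The second (chr1:62812534-62812584) is a cassette exon present in 2 of the 6. Both are exonic coding sequence from GENCODE on GRCm38, shown because they are what separates forms that a gene count adds together.
Nrp2 exon with optional end: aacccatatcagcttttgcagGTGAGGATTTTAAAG
Nrp2 cassette exon: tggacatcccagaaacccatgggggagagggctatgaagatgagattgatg
The last coding exon is also alternative, with 278 bases in 2 transcripts and 302 bases in 4. The deposited length was 6171.28, 6331.46 and 5753.00 bases for the control tumors and 6456.34, 5717.30 and 6040.82 bases for the test tumors, within the 4216 to 6723 bases of the annotated transcripts. The longest lengths were in test replicate 1 and control replicate 2, the 2 tumors with the lowest Nrp2 CPM, and the shortest in test replicate 2, the tumor with the highest. The groups overlapped, and the share of each transcript is not given by the gene counts.

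Ratios of the FPKM of related genes within a tumor compared the members without the scaling between tumors. Slit3 exceeded Slit2 in every tumor, by 2.34-fold to 10.2-fold, with geometric means of 4.22 in control and 4.19 in test tumors (exact permutation p = 0.9, n = 3 per group). Robo1 exceeded Robo2 by 1.71-fold to 36.4-fold, with geometric means of 8.19 in control and 5.68 in test tumors (exact permutation p = 0.8). It was 3.39, 15.9 and 10.2 in the control tumors and 1.71, 2.94 and 36.4 in the test tumors, so that the control ratios lay inside the test range. Ntn1 exceeded Ntn4 by 2.71-fold to 10.5-fold (exact permutation p = 0.4 between the groups), Sema3c exceeded Sema3a by 2.48-fold to 25.7-fold (exact permutation p = 0.5), and Nrp1 exceeded Nrp2 by 1.40-fold to 3.92-fold (exact permutation p = 0.6). These are 5 ratios, unadjusted, and each test can give no p below 0.1.

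**Figure D3:**
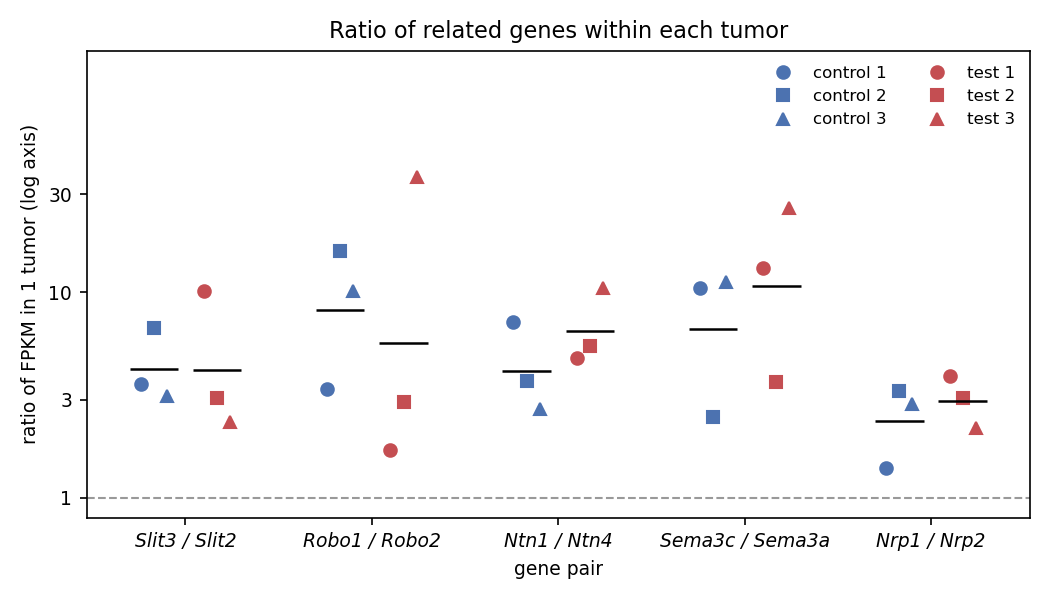
Each point is the ratio of the FPKM of 2 related genes within 1 tumor on a log axis, blue for control and red for test, and black bars are the geometric means of 3 tumors. All ratios lie above 1 (dashed line), and Robo1 / Robo2 spreads widest, from 1.71 to 36.4, with both ends in the test group.

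The extremes of the 10 members were spread over the tumors. Test replicate 2 held 3 of the highest and 3 of the lowest values, control replicate 1 held 3 of the highest and 1 of the lowest, and control replicate 3 held neither. Across the tested genes with a matched symbol, the pair most like each member over the 6 tumors, by Pearson's r of log2(CPM + 0.5), had r from 0.977 to 0.997. These were E030013I19Rik and Ramp3 for Slit2, Zfp292 and Rragd for Slit3, Cdh24 and Kctd11 for Robo1, D830005E20Rik and Vamp1 for Robo2, and Hsh2d and Slc25a27 for Ntn1. For the other members they were Usp53 and Slc44a1 (Ntn4), B3galt4 and Ucp2 (Sema3a), Zc2hc1c and Cd163 (Sema3c), Jpx and Nexn (Nrp1), and Atp8a2 and Rbm41 (Nrp2). Each member had 14 to 53 genes with r over 0.95, which with 6 points that share library and depth is a description alone.

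The other genes of these pathways were 61, of which 48 passed the filter on low counts. An unadjusted p under 0.05 was found for 10 of the 48 (20.8%; background 8.41%), and 0 passed a false discovery rate of 0.05 by edgeR. Of the 10, 1 was higher in test tumors (background 3.15%) and 9 were lower (background 5.26%). The median log2 fold change of the 48 was -0.38, and 35 of them (72.9%) were lower in test tumors, compared with 48.5% of all tested genes. These lists were chosen with earlier results known and were given no test as lists.

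Of the other Slit and Robo genes, only Robo4, the endothelial Robo and the highest of this list at 1.57 FPKM, passed the filter, with a log2 fold change of -0.11 ± 0.52 (SE; edgeR adjusted p = 0.963). Slit1 was too low to be tested, at 3.24, 0.649 and 1.39 CPM in the control tumors and 0.115, 0.122 and 0.424 CPM in the test tumors. The groups did not overlap, as for 5.86% of all tested genes in this direction, but the test values came from 1 to 4 counts.

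Netrin relatives and receptors held the largest differences. Ntng1, a membrane-anchored netrin-G, was at 0.810, 2.49 and 1.17 CPM in the control tumors and at 4.96, 8.18 and 7.85 CPM in the test tumors. Every test tumor was above every control tumor (background 6.12%), and the log2 fold change was 2.22 ± 0.56 (SE; unadjusted p = 0.00455; edgeR adjusted p = 0.394). Ntn3, a secreted netrin, was at 10.1, 1.41 and 7.14 CPM in the control tumors and at 1.04, 0.977 and 0.318 CPM in the test tumors. The groups did not overlap (background 5.86%), although control replicate 2 was close to the test tumors, and the log2 fold change was -2.98 ± 0.84 (SE; unadjusted p = 0.00790; edgeR adjusted p = 0.432). Both genes had adjusted p-values of 0.0315 (Ntn3) and 0.0206 (Ntng1) by DESeq2, the only other pathway genes past 0.05 with that tool. Ntng2, the second netrin-G, had a log2 fold change of -2.78 ± 1.19 (SE; unadjusted p = 0.0490 by edgeR) with overlapping groups. Of the netrin receptors, Neo1 (neogenin) was the highest at 15.1 FPKM, with a log2 fold change of -0.88 ± 0.47 (SE; unadjusted p = 0.101 by edgeR). Dcc was at or under 1.10 CPM in all 6 tumors and was not tested.

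Of the other class 3 semaphorins, 0 of 4 tested genes had an unadjusted p under 0.05, and Sema3b was the highest at 31.8 FPKM, above Ntn1, the most abundant of the 10 members, in mean level. Of 11 tested semaphorins of classes 4 to 7, which are mostly membrane proteins, 3 had an unadjusted p under 0.05 (27.3%; background 8.41%), all lower in test tumors. Sema6a, the most abundant of them, had a log2 fold change of -1.40 ± 0.53 (SE; edgeR adjusted p = 0.533), Sema6d of -1.85 ± 0.66 (edgeR adjusted p = 0.505) and Sema7a of -1.86 ± 0.65 (edgeR adjusted p = 0.491). In each of the 3 genes control replicate 2 lay within the test range while control replicates 1 and 3 were higher, as with 194 and 118 CPM against 52.9 CPM for Sema6a.

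Plexins include the signaling partners of the neuropilins. Of 9 plexins, all tested, 8 were lower in test tumors (88.9%; background 48.5%), the least of them Plxna3 at a log2 fold change of -0.02. An unadjusted p under 0.05 was found for 2 (22.2%; background 8.41%), both lower (background 5.26%). Without control replicate 1 the unadjusted edgeR p of these 2 was 0.0749 (Plxna1) and 0.14 (Plxnc1). Plxna1, a class A plexin that pairs with neuropilins, was at 150, 112 and 129 CPM in the control tumors and at 82.0, 41.5 and 85.1 CPM in the test tumors. The groups did not overlap (background 5.86% in this direction), with a log2 fold change of -0.91 ± 0.32 (SE; unadjusted p = 0.0245; edgeR adjusted p = 0.506). Plxnc1, the receptor of Sema7a, was at 7.87, 4.43 and 6.93 CPM in the control tumors and at 1.96, 2.56 and 4.03 CPM in the test tumors. Its groups did not overlap either, and the log2 fold change was -1.16 ± 0.48 (SE; edgeR adjusted p = 0.562). Plxnb2 was the highest plexin at 47.5 FPKM, with a log2 fold change of -0.33 ± 0.32 (SE; edgeR unadjusted p = 0.340).

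Of 7 tested VEGF ligands and receptors, which share the neuropilins, 0 had an unadjusted p under 0.05. Pgf was the highest at 34.0 FPKM, with a log2 fold change of 0.37 ± 0.79 (SE; edgeR unadjusted p = 0.652). Vegfd was too low to be tested, at 0.231, 0.433 and 0.426 CPM in the control tumors and 3.11, 0.854 and 0.743 CPM in the test tumors. The groups did not overlap, as for 6.12% of all tested genes in this direction. The control values came from 2 to 4 counts and the test values from 7 to 27. Among the cytoplasmic effectors, 2 of 10 tested genes had an unadjusted p under 0.05 (20.0%; background 8.41%), both of them Slit-Robo GTPase-activating proteins. Srgap3, the highest of this list at 18.7 FPKM, was at 302, 152 and 216 CPM in the control tumors and at 136, 90.6 and 119 CPM in the test tumors. Its log2 fold change was -0.95 ± 0.32 (SE; edgeR adjusted p = 0.483). Srgap2 had a log2 fold change of -0.90 ± 0.36 (SE; edgeR adjusted p = 0.556) and also did not overlap (background 5.86%), at 36.6 CPM in the highest test and 36.7 CPM in the lowest control tumor. Without control replicate 1 the unadjusted edgeR p was 0.0838 for Srgap3 and 0.125 for Srgap2. Srgap1, of the same family, had overlapping groups and a log2 fold change of -0.51 ± 0.81 (SE), with an unadjusted edgeR p of 0.552.

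**Figure D4:**
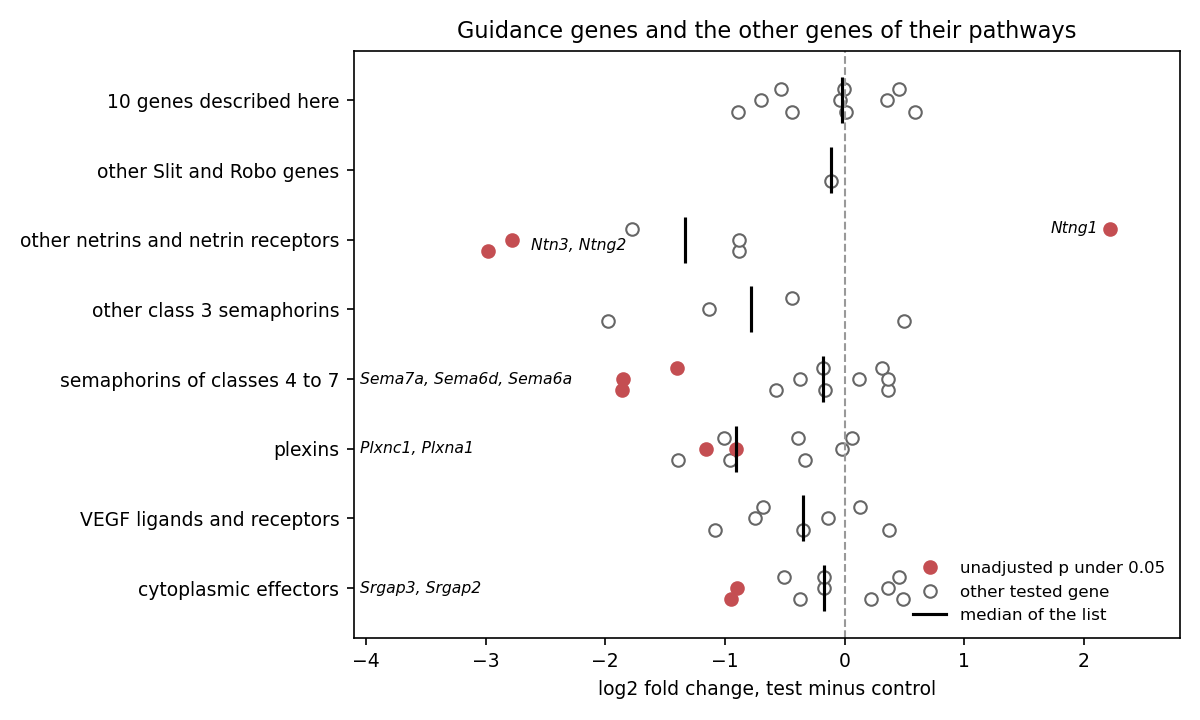
Each circle is the log2 fold change of a tested gene (test minus control, n = 3 per group), in rows for the 10 genes described here and 7 lists of other pathway genes. Filled circles have an unadjusted p under 0.05 and are named, and black bars are list medians. The 10 genes have a median of -0.02 and no filled circle, while the plexins have a median of -0.91.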

How the data were processed

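Total RNA of 6 mouse breast tumors, 3 test and 3 control by the labels, was sequenced at Beijing Genomics Institute on an Illumina HiSeq. Reads were aligned to mm10 with Bowtie. The submitters' processing notes also name BWA and RSEM, and the annotation release is not given in the sources used here. For each tumor and gene the authors deposited an expected count without normalization, an FPKM value and the gene length it was based on. In each tumor 79.0% to 80.1% of listed expected counts were whole numbers (tolerance 0.005). Genes not listed for a tumor were set to 0.

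Expected counts were rounded to whole numbers, filtered (filterByExpr) and scaled (TMM), and the groups were compared by quasi-likelihood F tests in edgeR 4.0.16 (R 4.3.3) with no covariate and Benjamini-Hochberg adjustment over 13706 genes. The standard error is the size of the log2 fold change over the root of the F statistic. Single values used a two-sided exact permutation test on log2(CPM + 0.5), or on the log ratio. The methods were tested on simulated data. A floor of 3 counts corresponded to 0.318 to 0.366 CPM and covers counting error only. P-values measure the spread between tumors of separate mice. Alternatives were RLE size factors, DESeq2 1.42.0, no count filter, a minimum of 10 counts per tumor, limma-trend (limma 3.58.1) on FPKM in log2 with 1 or 0.1 added where mean FPKM was 1 or more, a block for replicate number, and omission of each tumor.

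Of 18460 identifiers, 18400 were matched to a symbol. Annotation was GENCODE vM21 on GRCm38, the build of the files, and 3′ UTRs were those of the longest-UTR RefSeq-matched transcript of each gene. The members and the pathway and marker lists were chosen with earlier results of these data known. Named pathway genes are the highest of each list by FPKM and those with an unadjusted p under 0.05 or non-overlapping groups. Dcc, Plxna3, Srgap1, Cd3e and Tslp were named beyond this after their values were seen.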

Additional observations from a re-analysis of the deposited data

How the results depend on the processing

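No member passed a false discovery rate of 0.05 under any alternative run, and none had non-overlapping groups with RLE size factors or in FPKM. Of 124 member values under the alternatives, 113 kept their direction and side of the threshold and 11 changed direction without passing it; the cause was not tested. Ntn4 was 0.0015 (log2) with RLE size factors and 0.0015 with DESeq2. When 1 tumor was left out, log2 fold changes ran from -0.84 to 0.02 for Slit2 (positive without control replicate 1), -1.30 to 0.12 for Robo2 (likewise), -0.53 to 0.31 for Ntn4, -0.65 to 0.41 for Sema3a and -0.23 to 0.21 for Nrp2, while those of Slit3, Robo1, Ntn1, Sema3c and Nrp1 kept their sign. The number of members with an unadjusted p under 0.05 ran from 0 to 1, the 1 being Robo1 without test replicate 3.

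Counts over all genes moved more. Genes past a false discovery rate of 0.05 numbered 313 with DESeq2, 1 with limma-trend on log2(FPKM + 1), and 0 to 182 when 1 tumor was left out, the 182 without control replicate 2. Genes with an unadjusted p under 0.05 ran from 654 (without control replicate 1) to 2020 (without control replicate 2). Of the other pathway genes, 5 had an unadjusted p under 0.05 in either limma-trend fit and 3 to 17 when 1 tumor was left out, with 3 without control replicate 1 or test replicate 2, 4 without control replicate 3 and 17 without control replicate 2. Over all tested genes the number was 930 and 914 of 12890 in the limma-trend fits. It was 654 of 14056 without control replicate 1 and 1145 of 14033 without test replicate 2. Without control replicate 3 it was 701 of 14024, and without control replicate 2 it was 2020 of 14166. The genes tested differ between these settings, so the pathway counts do not share 1 denominator. Sema6d alone reached a false discovery rate of 0.05 without control replicate 2 (edgeR adjusted p = 0.0353). Ntn3 and Ntng1 kept an unadjusted p under 0.05 in all of their 10 and 12 alternatives.

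The labels number replicates 1 to 3 in each group, but the deviations of same-numbered tumors correlated at -0.025, 0.121 and -0.137, so the tumors were not treated as paired. With the replicate block, 0 members passed either threshold, 1056 genes and 8 other pathway genes had an unadjusted p under 0.05, and 0 genes passed a false discovery rate of 0.05. The lowest members had 8 to 74 expected counts per tumor, which limits what Robo2 and Sema3a can show.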
